A study of Mus musculus with 20 samples.

Results

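The DMSO Ova libraries describe the transcriptome of bone marrow-derived dendritic cells (BMDCs) that received neither a bromodomain inhibitor nor an immune complex. They were chosen by their labels, as all libraries labelled with DMSO and ovalbumin, and they make up 5 of the 20 libraries of the series, 1 from each of the mice A to E. The bone marrow came from wild-type C57BL/6 mice and was grown for 8 days in medium with GM-CSF at 40 ng/mL, with fresh medium on days 3 and 6. The cells then received the vehicle, followed by ovalbumin without antibody for 4 hours. The labels give the vehicle as 5% DMSO, whereas the methods name that share only for injections into mice, so the final concentration on the cells is uncertain. The methods describe the ovalbumin as endotoxin-free and the mice of all experiments as being of both sexes, and the ages of the donors of these cultures are not given in the sources used here. The labels describe cells sorted into lysis buffer and name no gate, whereas the methods describe lysis of cells in culture, so the libraries are treated here as bulk RNA of a mixed culture. In bulk RNA, fewer cells of a type and less RNA per cell cannot be told apart.

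GM-CSF signals through a receptor of a ligand-specific alpha chain, encoded by Csf2ra, and a shared beta chain, encoded by Csf2rb, which activate STAT5. Bone marrow cultured with GM-CSF is known to give a mixture of adherent, macrophage-like cells and of dendritic cells, some of which mature without added stimulus and then carry more MHC class II, costimulatory molecules and the chemokine receptor CCR7. Both kinds of cell take up antigen, carry Fcγ receptors, which bind immune complexes, and depend on the transcription factor PU.1, encoded by Spi1. The DMSO Ova libraries give the level of each of these genes after vehicle and 4 hours with ovalbumin, without inhibitor or immune complex. They also give the spread between mice within this group.

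Between 16447491 and 26940397 counts were assigned to genes in each library (median 19753544). Levels are given as CPM, the counts of a gene relative to the total of its library, after TMM normalisation of the 5 libraries, and comparisons between genes as TPM, which are counts per kilobase of exon scaled to the same total in each library. Of the 24421 genes listed, 11008 (45.1%) were detected, which is used here for at least 1 CPM in 5 of 5 libraries, and 7780 (31.9%) had no count in any of them. Libraries A and B stood apart from the others. Across the detected genes, libraries C, D and E correlated with each other at a Pearson's r of 0.992, A with B at 0.988, and A or B with C, D or E at 0.968 to 0.976. These are correlations across genes, which are not independent replicates. The labels and the methods name no batch that separates these mice, and many gene-level values are therefore given for each library. With A and B left out, 11270 genes were detected and 8208 had no count.

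The 4 genes taken as markers of these cultures were all detected at high levels. Itgax encodes CD11c, the integrin chain used to identify dendritic cells (chromosome 7, 128129547 to 128150657, mm10), and its CPM was 2365, 2068, 1805, 2164 and 1965 in mice A to E. Itgam encodes the integrin chain CD11b of myeloid cells (chromosome 7, 128062640 to 128118491), and had 1469, 1449, 1177, 1029 and 1238 CPM. Csf2rb (chromosome 15, 78325752 to 78353847) had 2811, 2806, 2932, 2910 and 2866 CPM. The SD of log2 CPM between mice was 0.03 for Csf2rb, 0.15 for Itgax and 0.22 for Itgam, where the median of all detected genes was 0.17. Cd74, which encodes the invariant chain that guides MHC class II molecules to the endosome (chromosome 18, 60803848 to 60812652), had 2090, 1956, 3206, 3751 and 3040 CPM, with A and B below the other 3 mice. Per length, Cd74 stood at 4920 ± 1551 TPM (SD, n = 5), Itgax at 1250 ± 73.5, Csf2rb at 1146 ± 94.8 and Itgam at 733 ± 76.9. The intervals of Itgax and Csf2rb overlap, so their order is within the spread between mice.

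The plot of the 20 genes with the highest mean CPM shows the most counted RNAs. Rn45s, the precursor of ribosomal RNA, took 2.70%, 4.57%, 7.83%, 5.35% and 4.78% of the counts in mice A to E. Psap, the precursor of the saposins that activate lysosomal lipid hydrolases, followed with 23991, 24806, 14617, 17087 and 14866 CPM. Chil3, a secreted chitinase-like protein of alternatively activated and alveolar macrophages, had 19903, 20397, 8649, 10471 and 13754 CPM, and Lyz2, the lysozyme of myeloid cells, had 16846, 15823, 8967, 11529 and 10232 CPM. All 3 protein-coding genes were highest in A and B. Actb, the cytoskeletal actin, was lowest in A and B but by less, at 12262, 11743, 12891, 14318 and 13528 CPM.

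Among the 20 most counted genes were also the elongation factor Eef1a1 (8922 ± 505 CPM, n = 5), the ferritin chains Ftl1 (8752 ± 2678) and Fth1 (4441 ± 1539), the macrophage elastase Mmp12 (7342 ± 2311), the chemokine Ccl6 (7174 ± 2252) and the lysosomal protease Ctsd (6989 ± 3063). The matrix glycoproteins Fn1 (5063 ± 1592 CPM) and Thbs1 (3319 ± 1655), the galectin Lgals3 (3840 ± 644) and the actin-binding protein Flna (3045 ± 163) belong to the same 20. Of the genes named so far in this paragraph, all but Fn1 were highest in A and B. Ctsd had 10714, 9929, 4459, 4766 and 5077 CPM in mice A to E, and Thbs1 had 4380, 5715, 2258, 1900 and 2343. For such genes the mean lies between the 2 sets of mice. The remaining members were Rmrp, Rpph1, Actg1, Ahnak and Tmsb4x, between 3521 and 8426 CPM on average. The 10 genes with the highest mean CPM held 15.0% ± 1.018 of the counts (SD, n = 5), and 527 genes held 50 percent of the summed CPM, whereas 151 held 50 percent of the summed TPM. The table thus ranged widely in level, with 76 genes at a mean of 1000 CPM or more, 1917 between 100 and 1000, 6539 between 10 and 100, 2964 between 1 and 10, and 5145 above 0 but under 1.

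**Figure D1:**
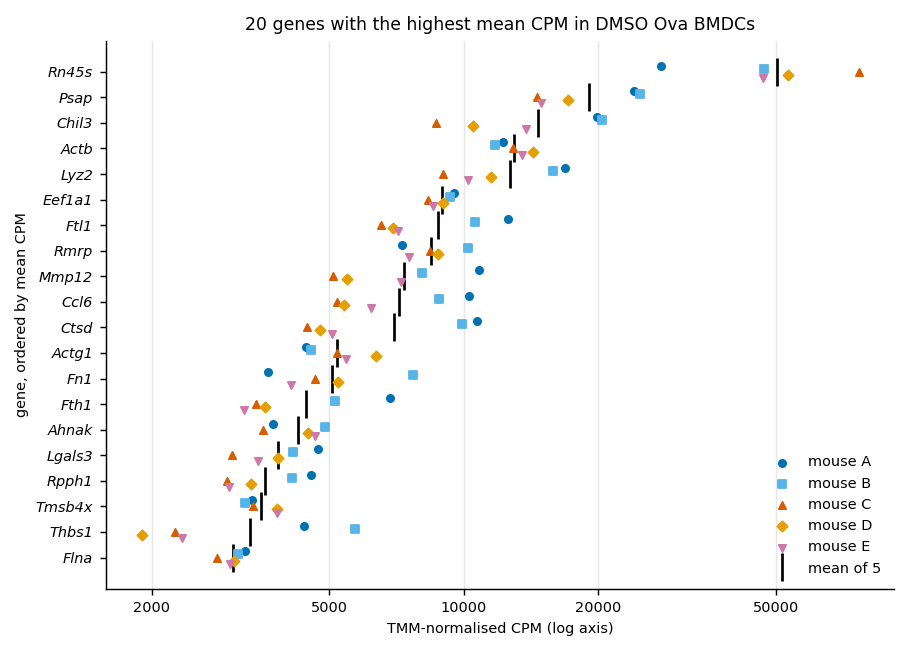
TMM-normalised CPM on a log axis of the 20 genes with the highest mean, with 1 point per mouse and a bar at the mean of the 5. Rn45s lies between 27666 and 76512 CPM, and Chil3, Lyz2 and Psap lie higher in mice A and B than in C, D and E.

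Ranked per length, the short non-coding RNAs Rmrp and Rpph1, the RNA subunits of RNase MRP and RNase P, came first with 87116 ± 11752 and 32402 ± 4312 TPM (SD, n = 5). Such RNAs carry no poly(A) tail, and the methods name a total RNA library kit. They were followed by Lyz2 (27630 ± 5778 TPM), Chil3 (25641 ± 7976), Psap (19955 ± 3918), Ftl1 (18714 ± 4499) and Actb (14096 ± 1786). The intervals of Lyz2 and Chil3 overlap, as do those of Psap and Ftl1, so their order is not settled by these data. Ctss, Cd74, Rplp1, Gm15772, B2m, Clec4n and Rps27rt were among the 20 highest by TPM but not among the 20 highest by CPM. Ctss, the cysteine protease that trims the invariant chain, stood at 6005 ± 1284 TPM, B2m, the light chain of MHC class I, at 3731 ± 254, and Clec4n, which encodes the fungal receptor dectin-2, at 3730 ± 885. Gm15772 and Rps27rt are ribosomal protein copies whose reads may be shared with their parent genes, and their levels are uncertain.

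Of the 20 most counted genes, the 4 with a promoter match to the letters AGGAAGT are shown. These letters are a form of the GGAA core that PU.1 and other ETS factors bind. Promoters without a match, among them those of Psap, Ctsd and Lgals3, are not shown. The sequences are those of RefSeq (GRCm38.p6), which covers 250 bases before to 50 bases after each gene start. Each is a 100-base window on the strand of its gene, and the capitals mark the match, which in all 4 lies in the reverse orientation as ACTTCCT. The window of Chil3 is chr3:106167571-106167670 on the minus strand, with the match beginning 60 bases before the gene start. That of Lyz2 is chr10:117282319-117282418 on the minus strand, with the match at 100 bases, that of Mmp12 is chr9:7344263-7344362 on the plus strand, at 88 bases, and that of Ccl6 is chr11:83593082-83593181 on the minus strand, at 48 bases.
Chil3: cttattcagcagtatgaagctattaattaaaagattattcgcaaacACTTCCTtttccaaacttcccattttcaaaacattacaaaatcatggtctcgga
Lyz2: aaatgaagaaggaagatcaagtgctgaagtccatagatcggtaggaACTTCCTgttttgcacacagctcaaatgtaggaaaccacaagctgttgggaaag
Mmp12: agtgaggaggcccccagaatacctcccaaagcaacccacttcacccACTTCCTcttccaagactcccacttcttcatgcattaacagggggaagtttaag
Ccl6: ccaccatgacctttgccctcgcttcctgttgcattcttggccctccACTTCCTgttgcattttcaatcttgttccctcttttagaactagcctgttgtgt

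The motif was chosen after these promoters had been read, and both strands were searched. It was found for 4 of the 14 genes among the 20 most counted that have a promoter in the table, and for 1646 (10.5%) of the 15611 protein-coding genes with one. Because the motif was chosen from those 4 genes, the first share was set by that choice and cannot be compared with the other. By mean level, the share of promoters with the motif was 8.80% for genes with no count, 8.87% above 0 and under 1 CPM, 9.16% from 1 to 10, 9.08% from 10 to 100, 10.6% from 100 to 1000 and 13.3% at 1000 CPM or more, the last being 8 of 60 promoters. The matches in Chil3, Lyz2, Mmp12 and Ccl6, from which the motif was chosen, are 4 of these 8, so the share at 1000 CPM or more was in part set by that choice. The median number of CpG dinucleotides in a promoter was 3 for genes with no count, 9, 17, 21 and 23 for the next levels in that order, and 15 at 1000 CPM or more. A match is a description of the sequence and shows no binding.

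Near-identical gene pairs limit some of these levels. The coding sequences of Lyz2 and its neighbour Lyz1, both on chromosome 10, are 95.1% identical over 444 bases, and those of Csf2rb and Csf2rb2, both on chromosome 15, are 92.9% identical. The first 60 coding bases of each are shown from GENCODE M21 with the bases that differ within a pair in capitals, since reads within such stretches can be told apart by few positions.
Lyz2: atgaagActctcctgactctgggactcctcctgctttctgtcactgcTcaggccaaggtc
Lyz1: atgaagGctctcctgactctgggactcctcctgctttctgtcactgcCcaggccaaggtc
Csf2rb: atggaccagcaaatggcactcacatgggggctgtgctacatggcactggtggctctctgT
Csf2rb2: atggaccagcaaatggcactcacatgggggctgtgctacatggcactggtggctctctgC

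The level of Lyz1 was 5.15%, 5.00%, 6.52%, 6.27% and 5.65% of that of Lyz2 in mice A to E, as a ratio of CPM. That of Csf2rb2 was 16.5%, 25.96%, 37.9%, 36.4% and 26.7% of that of Csf2rb, so the pair did not keep 1 ratio across mice. Csf2rb2 encodes the beta chain of the mouse receptor for IL-3 alone. Of the 100-base windows of the Lyz2 transcript, 1.97% also occur in Lyz1, and for Csf2rb and Csf2rb2 the share was 6.96%. How the counting treated reads that fit both members of a pair is not given in the sources used here.

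Dendritic cell genes were present, but the genes that define the conventional subsets were uneven. All 8 members of the dendritic cell identity list were detected, against 45.1% of all genes. Zbtb46, a transcription factor of conventional dendritic cells, had 12.8, 13.6, 33.5, 35.5 and 34.0 CPM in mice A to E. Flt3, the receptor on which dendritic cells of lymphoid organs depend, had 1.82, 1.06, 5.196, 4.94 and 2.98 CPM. Dpp4, the surface peptidase CD26, had 4.77, 5.74, 29.6, 24.2 and 25.3 CPM. In each of these 3 genes both A and B lay below C, D and E. The same was true of 7 of the 8 members, Itgax being the exception, while among all detected genes A and B were the lowest pair in 21.8% and the highest pair in 26.1%.

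Of the list for cross-presenting cDC1, 5 of 8 were detected (62.5%, against 45.1% of all genes). Their chemokine receptor gene Xcr1 had at most 2 counts in a library, and Cadm1 had 0.133 CPM on average. Itgae, the gene of CD103, had 0.242, 0.312, 1.435, 1.18 and 0.921 CPM in mice A to E. Clec9a, their receptor for dead cells, was low but present at 6.95, 9.79, 4.06, 4.24 and 4.33 CPM. The transcription factor gene Batf3 was detected at 9.655, 9.23, 28.55, 26.1 and 25.1 CPM, and Tlr3 at 4.89, 4.80, 2.57, 3.02 and 3.79. The members at high level were Cd24a (300 ± 40.7 CPM, n = 5) and Wdfy4 (251 ± 23.3), which other myeloid cells also express. Of the cDC2 list, 6 of 8 were detected (75%). Sirpa, the receptor for CD47, had 1250, 1163, 882, 933 and 927 CPM, and the lectin Mgl2 had 489, 690, 624, 688 and 612. Cd209a, the DC-SIGN relative often used to mark monocyte-derived dendritic cells, had 2 to 11 counts in each library, and Esam had 0.14 CPM. Of the plasmacytoid list, 4 of 8 were detected (50%, near the 45.1% of all genes). Its defining member Siglech had no count in any of the 5 libraries.

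Monocyte and macrophage genes were abundant. Of this list 17 of 20 were detected (85%, against 45.1% of all genes). Cx3cr1 was at 0.345 CPM, and Timd4 and Vsig4, markers of resident macrophages, had no count. Csf1r, the receptor for M-CSF, had 1237, 1284, 964, 1092 and 877 CPM. Adgre1, which encodes F4/80, had 182, 172, 186, 151 and 172 CPM and had an SD of log2 CPM of 0.12. The endosomal glycoprotein gene Cd68 had 336, 294, 149, 179 and 194 CPM, and Cd14, the coreceptor for lipopolysaccharide, had 158, 150, 75.4, 84.7 and 80.9. Both were highest in A and B, as were 10 of the 17 detected members of the list, against 26.1% of all detected genes. The complement gene C1qb (74.0 ± 22.6 CPM, n = 5) was also detected, and Apoe ranged from 9.59 to 43.0 CPM.

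Genes of the alveolar type of macrophage, which depends on GM-CSF, were detected in 10 of 12 cases (83.3%, against 45.1% of all genes). Chil3 made up most of their summed level, which ran from 9785 CPM in C to 21254 in B. Fabp5, a fatty acid-binding protein, had 368, 344, 393, 425 and 433 CPM, the placenta-expressed surface protein gene Plet1 had 531, 221, 439, 387 and 505, and Car4, a carbonic anhydrase, had 132, 102, 94.7, 71.2 and 109. The nuclear receptor gene Pparg was lower and even, at 24.2, 19.7, 19.2, 21.3 and 21.8 CPM, and Siglecf lay between 33.8 and 52.4.

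Markers of lymphocytes and red cells were low or absent, as the plot of the marker lists shows. None of the 9 B cell genes, none of the 16 T and NK cell genes and none of the 10 erythroid genes measured was detected in 5 of 5 libraries, against 45.1% of all genes. Their summed levels were 0.271 to 0.606 CPM for the B cell list, 2.06 to 7.97 for the T and NK cell list and 1.62 to 14.7 for the erythroid list. Cd4, Cd8b1, Zap70, Ncr1, Gzma and Eomes of the T and NK cell list, Igll1 and Cr2 of the B cell list, and Alas2 of the erythroid list had no count. For a gene with no count, the 3 counts that a count of 0 allows over the 5 libraries correspond to 0.02815 CPM, and this limit covers counting error only. The T cell factor gene Tcf7 was the highest of these members outside the red cell list, with 13, 21, 115, 165 and 67 counts, and the β-globin gene Hbb-bt had 42, 11, 165, 169 and 143.

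Granulocyte genes were split. Mmp8, a collagenase known from neutrophils, had 901, 774, 478, 473 and 485 CPM. The calprotectin genes S100a8 and S100a9, which neutrophils express at very high levels, stood at 12.7 ± 3.92 and 12.3 ± 9.94 CPM (SD, n = 5), and the granule genes Mpo, Elane and Ctsg had 3, 1 and 1 counts in all. In total 7 of the 15 neutrophil genes measured were detected (46.7%), a share near the 45.1% of all genes. The eosinophil granule gene Prg2 had 16.1, 12.6, 54.0, 56.2 and 47.8 CPM and Epx had 2.02, 1.81, 8.66, 12.5 and 8.83. All 5 detected eosinophil genes, Siglecf included, were lowest in A and B, against 21.8% of all detected genes. Of the mast cell and basophil list 4 of 11 were detected (36.4%, against 45.1% of all genes). Among them was Kit, a receptor shared with progenitors (14.9, 10.2, 34.7, 27.9 and 30.5 CPM). The IgE receptor chain gene Fcer1a had a count in mouse D only. The platelet chemokine gene Pf4 had 116, 87.2, 65.0, 46.6 and 36.1 CPM.

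Genes of unrelated tissues were largely absent. Of 14 genes of epithelial, neural and other organs 7 had no count, against 31.9% of all genes. Only Cdh1 was detected, at 77.7, 64.9, 76.6, 46.7 and 68.7 CPM. Cdh1 encodes E-cadherin, which epithelial cells use for adhesion and which Langerhans cells and some GM-CSF cultures also express. Of 14 stromal and endothelial genes, 3 were detected (21.4%, against 45.1% of all genes), namely Lepr, Kdr and Pecam1. The collagen genes Col1a2 and Col3a1 had no count. Kdr, a receptor for vascular endothelial growth factor, had 12.1, 13.8, 4.21, 2.18 and 2.28 CPM.

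**Figure D2:**
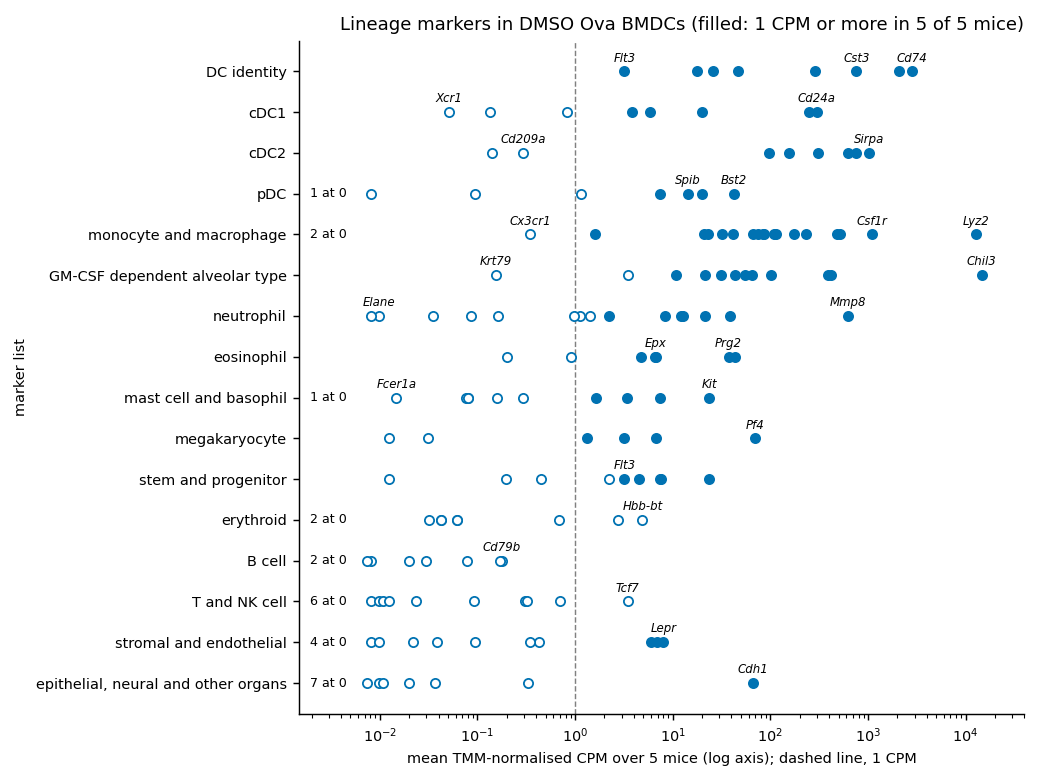
Mean TMM-normalised CPM over 5 mice, on a log axis, of each member of 16 marker lists, with members at no count given as a number at the left. Filled points were at 1 CPM or more in 5 of 5 mice; none of the members of the erythroid, B cell, and T and NK cell lists is filled.

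The receptors through which these cells sense growth factors were dominated by the GM-CSF and M-CSF receptor genes. Of 35 cytokine and growth factor receptor genes 31 were detected (88.6%, against 45.1% of all genes). Csf2ra had 307, 396, 306, 305 and 304 CPM in mice A to E, with B above the other mice. Per length, Csf2rb exceeded Csf2ra 3.61, 2.79, 3.78, 3.77 and 3.72-fold in the same order. Csf1r stood at 545 ± 55.8 TPM (SD, n = 5), close to Csf2rb2 at 513 ± 187, and the TNF receptor gene Tnfrsf1b at 395. Those of the other growth factors of the bone marrow were low, with Csf3r at 6.75 TPM, Kit at 7.89 and Flt3 at 1.54, and Epor was not detected.

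Among the interleukin receptor genes, the IL-4 receptor gene Il4ra had 341, 282, 416, 341 and 357 CPM, and Il21r had 210, 186, 179, 184 and 189. Tgfbr1, which encodes a TGF-β receptor, was even at 298, 262, 279, 283 and 290 CPM. The 2 genes of the IL-2 receptor besides the common chain differed. Il2ra, the alpha chain CD25, had 11.6, 8.42, 60.8, 45.6 and 62.0 CPM, and Il2rb had no more than 1 count in any library. The common γ chain gene Il2rg had 101, 88.2, 101, 99.9 and 90.4 CPM.

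The Fcγ receptors are the receptors for the immune complexes used elsewhere in the study. Fcgr3, an activating low-affinity receptor, had 707, 679, 391, 435 and 478 CPM, and was highest in A and B. Fcgr2b, the inhibitory receptor, had 393, 341, 286, 321 and 323 CPM. Fcer1g, the signalling chain shared by the activating receptors, had 309, 277, 213, 229 and 219 CPM, and Fcgr1, the high-affinity receptor, had 79.4, 73.1, 67.3, 58.3 and 53.4. Fcgr4 was the lowest of the Fcγ receptor genes, at 1.495, 2.495, 0.643, 0.737 and 1.08 CPM, and did not reach 1 CPM in 2 of the mice.

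Per length, the order was Fcgr3 (889 ± 184 TPM, n = 5), Fcer1g (823 ± 83.4), Fcgr2b (166 ± 10.7), Fcgr1 (74.0 ± 8.84) and Fcgr4 (2.92 ± 1.56). The ranges of Fcgr3 and Fcer1g overlap, from 703 to 1094 and from 762 to 949 TPM, so these neighbours do not differ beyond their spread, whereas the ranges of the others do not meet. The summed TPM of the 3 activating receptors was 6.47, 7.15, 5.10, 4.95 and 5.32 times that of Fcgr2b in mice A to E. Fcgr3 and Fcgr2b share 65.3% of their coding bases, and 3.53% of the 100-base windows of Fcgr3 occur in Fcgr2b. The neonatal receptor gene Fcgrt (25.8 ± 5.98 CPM) and the cytosolic antibody receptor gene Trim21 (15.6 ± 0.66) were also detected, and Fcer2a, Fcamr and Pigr had no count.

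Of 25 C-type lectin receptor genes 15 were detected (60%, against 45.1% of all genes). Clec4n had 2733, 2001, 1345, 1490 and 1660 CPM, and Clec7a, which encodes the β-glucan receptor dectin-1, had 1567, 991, 810, 871 and 1135. Mrc1, the mannose receptor, had 465, 474, 361, 540 and 569 CPM. The langerin gene Cd207 and the liver lectin genes Clec4f and Clec4g had no count.

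Of the 20 innate sensor genes 17 were detected (85%, against 45.1% of all genes). Tlr4, the lipopolysaccharide receptor, had 504, 375, 338, 258 and 382 CPM, and Tlr2, a receptor for lipoproteins, had 251, 161, 134, 124 and 131. The RNA sensor genes Tlr7 and Tlr8 were highest in A and B, with 114, 106, 47.1, 49.8 and 58.1 CPM for Tlr7. Tlr9, which senses DNA, ran the other way, with 5.01, 9.86, 23.1, 23.9 and 12.7 CPM. Tlr5, the flagellin receptor, was at 0.244 CPM on average. Ordered per length, Tlr4 (193 ± 39.1 TPM), Cd14 (181 in the mean) and Tlr2 (152 ± 41.0) came first, and the intervals of these neighbours overlap.

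Of 23 chemokine receptor genes 8 were detected (34.8%, against 45.1% of all genes). Ccr2, which guides monocytes to inflamed tissue, had 328, 462, 465, 759 and 558 CPM, and Ccr1 had 523, 461, 310, 266 and 374. Ccr7, which guides dendritic cells to lymph nodes, had 244, 220, 715, 623 and 629 CPM, with A and B well below the rest. Cxcr4 had 117, 133, 85.8, 94.9 and 83.7 CPM. Ccr4, Ccr6, Ccr8, Ccr9, Ccr10, Cxcr3, Cxcr5, Cxcr6, Cx3cr1 and Xcr1 were each below 1 CPM in every library, and the atypical receptor genes Ackr1 and Ackr2 had no count.

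Of the 26 integrin genes 15 were detected (57.7%, against 45.1% of all genes). Itgb2, the β chain that pairs with both Itgax and Itgam, had 2405, 2253, 1455, 1577 and 1581 CPM and stood at 1746 ± 300 TPM, the highest integrin gene per length. Itgb1 followed Itgam at 447 ± 58.9 TPM. Of the scavenger, complement and uptake receptor genes 17 of 20 were detected (85%). Axl, which binds dying cells, was even at 1340, 1307, 1287, 1391 and 1204 CPM, and the fatty acid receptor gene Cd36 had 1051, 807, 694, 629 and 790. Lrp1, an endocytic receptor, had 1421, 2041, 1011, 1135 and 1184 CPM.

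**Figure D3:**
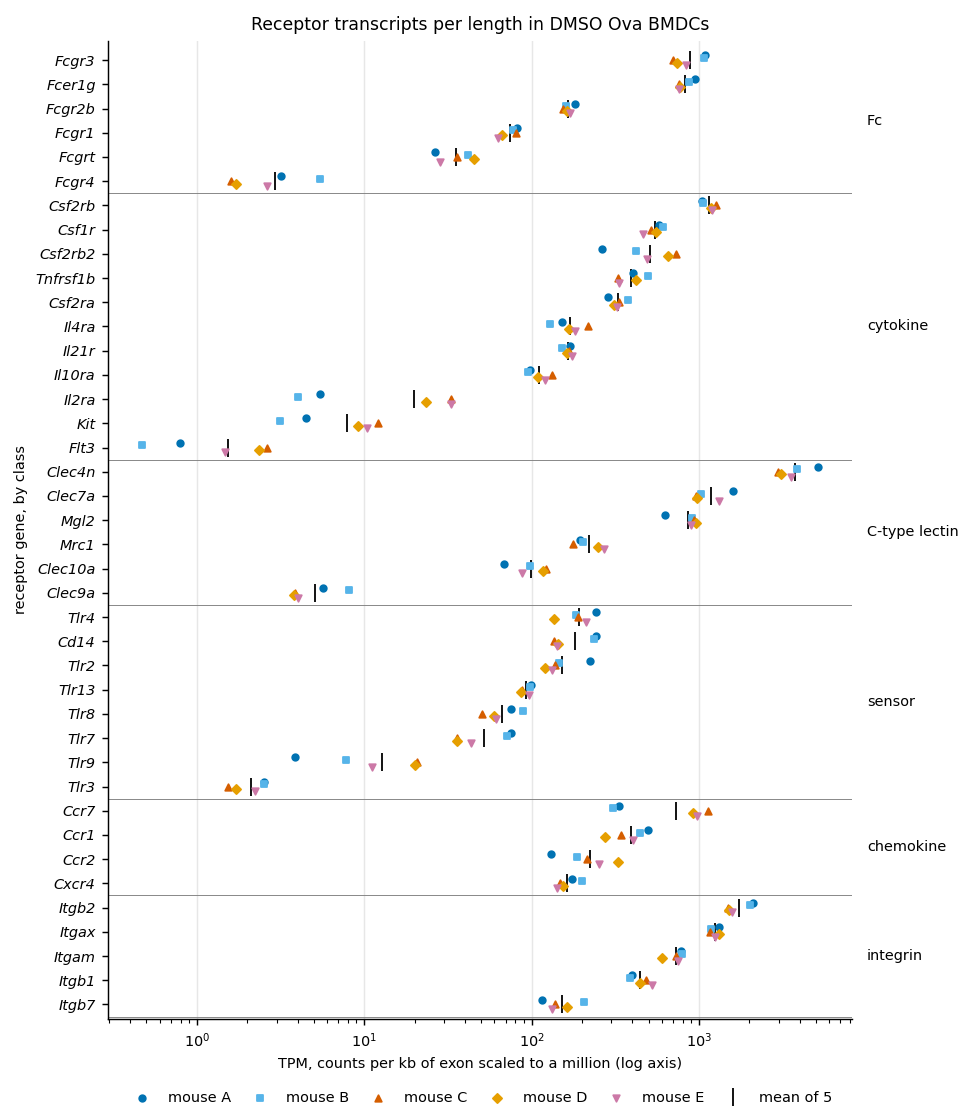
Receptor transcripts per length, as TPM on a log axis, ordered by mean within 6 classes, with 1 point per mouse and a bar at the mean of the 5. Csf2rb and Itgax points lie close together across mice, whereas those of Il2ra, Flt3, Tlr9 and Ccr7 separate mice A and B, at lower TPM, from C, D and E.

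Of 39 lineage transcription factor genes 27 were detected (69.2%, against 45.1% of all genes). Spi1 had 220, 190, 197, 214 and 197 CPM, the myeloid factor gene Cebpa had 116, 117, 85.1, 104 and 81.3, and Cebpb had 271, 253, 220, 226 and 157. The interferon regulatory factor genes Irf5 (356 ± 61.9 CPM, n = 5), Irf4 (308 ± 77.3) and Irf8 (287 ± 95.2) were all detected, and Irf8 was 187 and 189 CPM in A and B against 314 to 400 in the others. Bhlhe40 had 529, 488, 654, 621 and 644 CPM. Among the factors of other lineages, Tbx21 and Eomes of lymphocytes, had no count, Pax5 of B cells had 1 count, and Gata1 of red cells was at 0.686 CPM.

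Genes of dendritic cell maturation were present in all 5 cultures but at levels that differed between the cultures. Of this list of 19 genes, 18 were detected (94.7%, against 45.1% of all genes), Cd70 being the exception. Ccl22, a chemokine for T cells bearing CCR4, had 540, 416, 1755, 1722 and 1539 CPM. Fscn1, the actin bundler of dendrites, had 93.3, 81.7, 479, 409 and 348 CPM, and Cd83 had 68.2, 62.1, 200.1, 195 and 207. Mice A and B were the lowest pair in 16 of the 18 detected genes, against 21.8% of all detected genes. The costimulatory genes Cd86 (66.8, 55.2, 139, 106 and 143 CPM), Cd80 (10.4, 9.17, 30.9, 24.8 and 35.5) and Cd40 (1.74, 1.25, 6.73, 6.45 and 6.99) were among them. The 2 members outside that pattern were Cd274, which encodes PD-L1 (305, 264, 319, 256 and 316 CPM), and Tnfsf9. Summed over the list, the level was 2510, 2016, 5641, 5346 and 5072 CPM.

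The macrophage list had a summed level of 20149, 19377, 11687, 14789 and 13105 CPM, highest in A and B, and most of it was Lyz2. Without Lyz2 the sum was 3303, 3554, 2720, 3261 and 2874 CPM. The map of deviations from the mean of each gene shows both sets side by side. Several library measures moved with this division. The share of Rn45s was lowest in A and B, as were the TMM factor (0.974 and 0.975 against 1.007 to 1.023), the number of genes with a count (14804 and 14610 against 14863 to 15205) and that of genes at 1 CPM (11315 and 11379 against 11452 to 11543). Total counts were 25415258 in A and 16447491 in B. Exon length moved with the library as well. The 2169 detected genes with the shortest exons deviated from their mean by 0.11 in A and -0.07 in C on the log2 scale in the median, and the 2169 with the longest by -0.08 in A and 0.04 in C. In B both medians were within 0.01 of 0. The part of these measures and of exon length in the differences between mice was not tested.

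**Figure D4:**
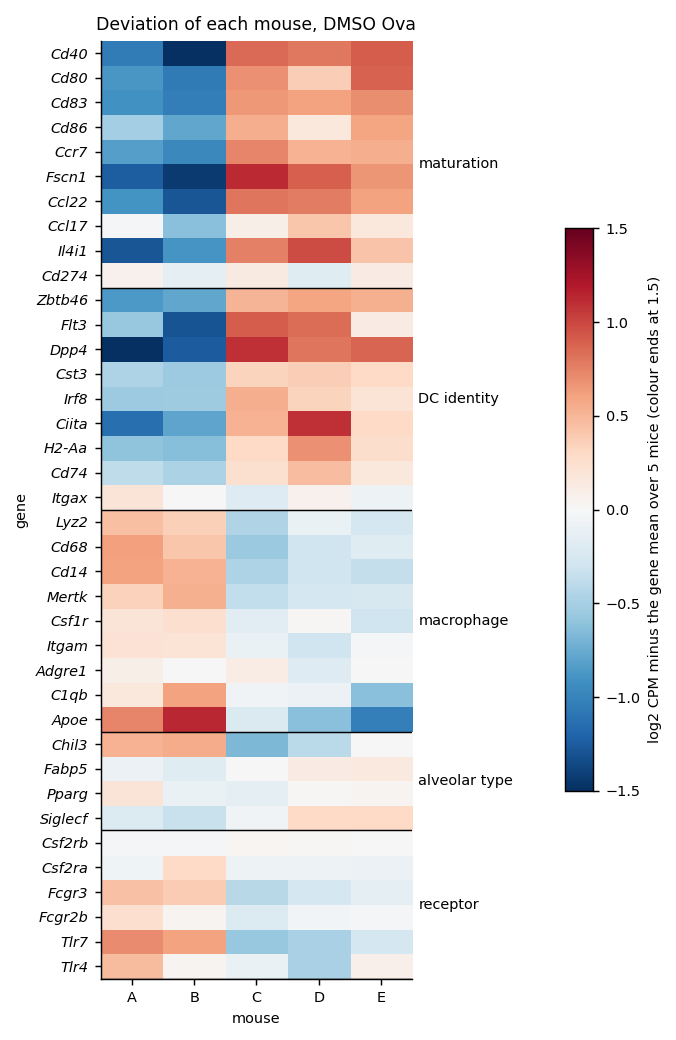
Deviation of each mouse from the mean over the 5 mice, in log2 CPM with a prior count of 2, for 38 named genes in 5 groups; red is above and blue below the mean, and colours end at 1.5. Maturation genes such as Fscn1 are blue in A and B and red in C, D and E, Lyz2 and Cd14 are the reverse, and the row of Csf2rb is nearly white.

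Antigen presentation genes were detected in 21 of 22 cases (95.45%, against 45.1% of all genes). H2-Ob, a chain of the inhibitory molecule H2-O, fell under 1 CPM in A and B. The MHC class II genes H2-Aa (291, 283, 542, 710 and 529 CPM), H2-Eb1 (142, 148, 321, 411 and 286) and H2-Ab1 (239, 243, 307, 439 and 299) were lowest in A and B. So was their transactivator Ciita, at 17.9, 22.7, 56.8, 84.7 and 48.7 CPM. MHC class I differed less between mice, with 760, 716, 602, 661 and 656 CPM for H2-K1. Per length, H2-K1 stood at 669 ± 21.03 TPM and H2-D1 at 1118 ± 83.7.

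Inflammatory genes were mostly low. Of 20 genes 14 were detected (70%, against 45.1% of all genes). Il1rn, the antagonist of IL-1, had 255, 145, 157, 125 and 171 CPM, and the chemokine gene Ccl5 had 85.1, 74.4, 231, 183 and 177. Per length, Ccl5 stood at 465 ± 232 TPM, above the chemokine gene Ccl3 at 107 ± 53.2 and Il1rn at 88.9 ± 22.6. Tnf had 17.5, 5.99, 10.5, 6.93 and 7.96 CPM, Il1b had 14.5, 6.80, 5.94, 12.5 and 13.1, and Il6 had 5.78, 6.30, 4.90, 3.35 and 6.23. The p40 gene Il12b was detected (8.34 ± 2.51 CPM), while its partners Il12a and Il23a had 2 and 5 counts in all and Il10 had 1. Nos2, the inducible nitric oxide synthase gene, was at 0.78 CPM. Of 12 interferon-stimulated genes 6 were detected (50%, near the 45.1% of all genes). Mx1 was the highest of them at 26.3, 27.8, 83.9, 69.7 and 71.1 CPM, whereas Isg15 had 0.646, 0.686, 0.495, 1.99 and 2.28.

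Genes of the cell cycle were detected in 14 of 14 cases, against 45.1% of all genes. Mice A and B were the highest pair in 8 of these genes, against 26.1% of all detected genes. Mki67, a marker of cycling cells, had 193, 218, 207, 222 and 202 CPM, Top2a had 195, 181, 155, 157 and 148, and Pcna had 174, 142, 114, 122 and 131. The housekeeping genes were detected in 13 of 13 cases, against 45.1% of all genes, but their levels lay far apart. Per length, Actb was 64.9, 58.9, 91.1, 104 and 90.6 times the glycolytic gene Gapdh in mice A to E. Xist, the RNA that coats the inactive X chromosome, had 270, 855, 738, 493 and 622 CPM. Of the Y-linked genes Ddx3y, Eif2s3y and Kdm5d had no count and Uty had 1 count, in mouse A. Every library thus had the pattern of female cells, whereas the methods describe the mice of all experiments as being of both sexes.

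Several gene families of specialised tissues were almost entirely without counts. Of 1125 odorant receptor genes (Olfr) 1099 had no count, as had 329 of 338 vomeronasal receptor genes (Vmn), against 31.9% of all genes. All 53 keratin-associated (Krtap), 15 trace amine-associated receptor (Taar), 20 major urinary protein (Mup) and 25 secretoglobin (Scgb) genes had no count, and so did 42 of 43 β-defensin genes. Olfr111, at 3.49 CPM, was the odorant receptor gene with the highest level and the 1 that was detected in 5 of 5 libraries. At the other end, 55 of 57 genes with symbols starting in Rpl, 46 of 48 in Rps, 49 of 50 in Psm and 44 of 45 in Nduf were detected. The share over all genes was 45.1%. These symbols are mainly those of ribosomal proteins, proteasome subunits and subunits of respiratory complex I. They were taken by their first letters alone, so other genes with the same start may be included. Histone genes with symbols starting in Hist were detected in 65 of 68 cases. By annotation, 10606 of 20509 protein-coding genes were detected, against 63 of 1180 miRNA genes and 47 of 936 lincRNA genes.

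The spread between mice was small for most genes. The SD of log2 CPM had a median of 0.17 over the detected genes, and was below 0.25 in 7925 of them (71.99%) and above 1 in 88 (0.799%). The biological coefficient of variation estimated by edgeR had a median of 0.143. With A and B left out, these medians were 0.11 and 0.09215. By level, the median SD was 0.24 for genes at 1 to 10 CPM, 0.16 at 10 to 100, 0.15 at 100 to 1000 and 0.23 for the 76 genes at 1000 or more.

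The 10 genes with the smallest SD among those at 100 CPM or more included Anapc1, a subunit of the anaphase-promoting complex (152, 155, 153, 153 and 152 CPM), the chromatin protein gene Rbbp4 (164, 161, 164, 165 and 166), the adaptor gene Ap3d1 and Csf2rb. Csf2rb was the most counted of the 10, at rank 22 of all genes. The other members were Ptp4a1, Gm13363, Ppp1r9b, Tnks2, Ric8 and Got1, with SDs of 0.02 to 0.03 on the log2 scale. These genes were chosen for their low spread, so their values are a description.

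Among genes at 10 CPM or more the 15 with the largest SD were led by Lars2, the mitochondrial leucyl-tRNA synthetase gene (chromosome 9, 123366927 to 123462666), at 61.0, 739, 41.6, 63.8 and 20.6 CPM. This spread rests on mouse B. In Mir6236 and Gm6682 the mice fell in other orders, with 2.87, 18.3, 31.4, 36.8 and 5.04 CPM for Mir6236. Against 21.8% of all detected genes, A and B were the lowest pair in the other 12 genes. They included Nr4a3, an orphan nuclear receptor gene of the early response (50.01, 42.4, 284, 219 and 261 CPM), Adam23 (16.6, 15.7, 89.6, 71.3 and 75.4), Serpinb6b (11.2, 8.98, 43.4, 53.3 and 58.9), the junction gene Cldn1 (4.20, 3.81, 20.4, 20.3 and 24.6) and Spib, an ETS factor gene related to Spi1 (3.92, 4.87, 20.1, 23.8 and 19.3). Il2ra, Dpysl5, Cdh2, Ikzf4, Dpp4, S1pr3 and Serpina3g made up the rest. All 15 genes were chosen for their large spread in these same libraries, so the count of 12 is a description.

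**Figure D5:**
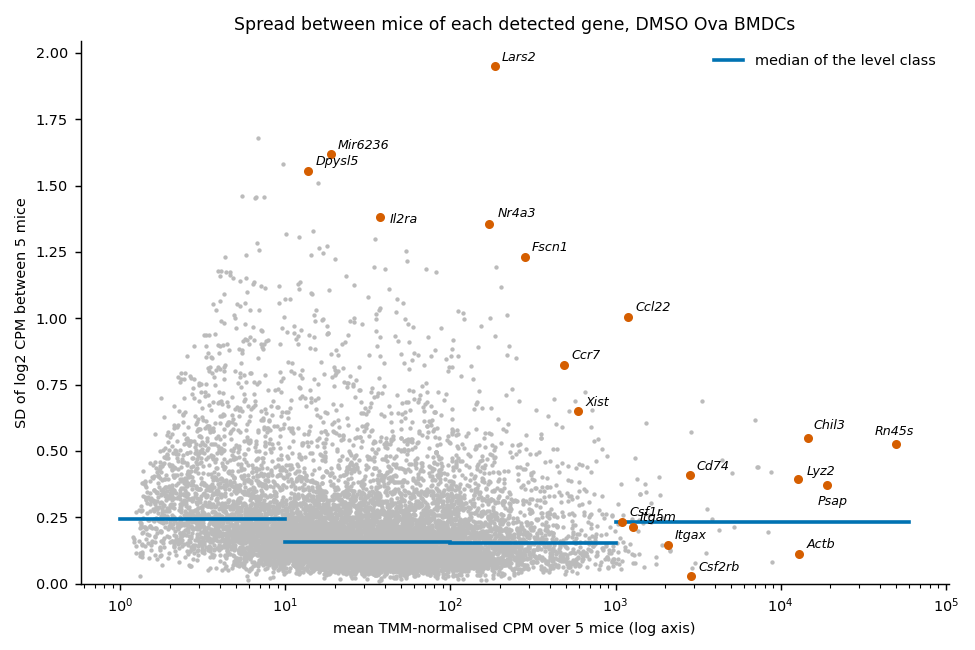
SD of log2 CPM between the 5 mice against the mean CPM, on a log axis, for 11008 detected genes; blue lines are the medians of 4 level classes. Lars2 lies at the top, Csf2rb has an SD of 0.03 at 2865 CPM, and the medians by level are 0.24, 0.16, 0.15 and 0.23 from the lowest class to the highest.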

How the data were processed

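The 5 DMSO Ova libraries were taken by their labels. The authors trimmed the reads with Trim Galore, used HISAT2 for alignment to mm10 and featureCounts for assignment to genes, and the raw counts per gene that they deposited were taken as they are; the annotation, strand setting and versions are not given in the sources used here. The other deposited table holds the same libraries scaled by the authors and was not used. No other column of per-sample values was left out. Depth was 16447491 to 26940397 counts, at which 3 counts are 0.111 to 0.187 CPM.

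CPM was computed with the TMM factors of edgeR 4.0.16 (R 4.3.3), log2 CPM with a prior count of 2, and TPM from merged exons of at least 200 bases in GENCODE M21, to which 23376 of the 24421 symbols matched directly and 651 through an older symbol (98.4%). A symbol with no row (Ly6g, Ighm) was not analysed here, and a few list members are not reported here by name. No test between groups was run, since 1 group was described, and single libraries far from the others were looked for with the Dixon ratio. The members, lists and rules were chosen with earlier results of these data known. Genes were named if they were among the 20 highest by mean CPM or TPM, the 15 with the largest SD at 10 CPM or more, the 10 with the smallest at 100 CPM or more, or on 1 of 33 lists. The spread measures were tested on simulated data. Alternatives were the size factors and dispersions of DESeq2 1.42.0, library size only, other minimum levels, prior counts and gene lengths, Rn45s left out, and each mouse left out; leaving out A and B together was added after the values were seen. Nothing states that the mice were cultured separately in time, so SDs measure the spread between these 5 cultures.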

Additional observations from a re-analysis of the deposited data

Results flagged for a closer look

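In a group of 5, the gap between an extreme library and its neighbour was divided by the range of the group and set against the critical value of 0.71 (Dixon). Of 304 named and detected genes, 9 passed it, as did 462 (4.20%) of the 11008 detected genes, and chance flags about 1 in 20 groups. No library measure and none of the 33 summed lists passed. Mouse B was far above the others in Csf2ra (ratio 0.962, 396 CPM against 304 to 307), Lars2 (0.940, 739 CPM against 20.6 to 63.8) and Maf (0.835, 3.06 CPM against 1.14 to 1.45). Mouse A was far below the others in Notch2 (0.849, 601 CPM against 770 to 800). Mouse A was far above them in Tyro3 (0.869, 17.5 CPM against 7.96 to 9.21), Irg1 (0.802, 31.7 against 11.9 to 15.8), Batf (0.789, 17.8 against 13.2 to 14.2), Cebpd (0.770, 29.3 against 19.1 to 21.4) and Ccl3 (0.757, 56.3 against 15.3 to 25.2). Their causes were not tested.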

How the results depend on the processing

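The counts of genes with no count and of detected genes stayed within 1.5 times of their values under every alternative run, the latter between 10675 (1 TPM) and 11606 (10 counts in each library). Without Rn45s, the 10 most abundant genes held 11.2% of the counts, and 151 genes held 50 percent of the summed TPM. The median SD was 0.24 with no filter on low counts, 0.15 at 10 CPM or more and 0.11 without mice A and B, and the median coefficient of variation 0.190 with no filter and 0.09215 without A and B. When 1 mouse at a time was left out, the median SD ran from 0.15 (without A) to 0.18, the coefficient from 0.131 to 0.157, the detected genes from 11033 to 11089, genes with no count from 7954 to 8108, the 10-gene share from 14.7% to 15.3%, and the genes that hold 50 percent from 515 to 545. Between 15 and 20 of the 20 highest genes by TPM were shared with each alternative, the fewest with no minimum length, where 5 miRNA genes entered. Detected list members numbered 264 of 421 and 264 to 276 under the alternatives; the T and NK cell list reached 1 detected member and the erythroid list 1 or 2 under some of them, and the stem and progenitor list had 3 in place of 5 at 1 TPM. Mean levels of the 421 named genes with counts moved by less than their SD under both other scalings, and 8 of them by more without A and B, all among the genes of smallest SD. No paired analysis was possible because 1 group was described, with 1 library per mouse and no test. Depth limits what can be said of genes under about 0.2 CPM in a single library.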
